A study of Mus musculus with 2 samples.

Results

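The genes described here are 40 genes of DNA replication and mitosis, chosen by symbol from a written list and followed in every cell of the study. All 40 were found once each among the 31054 features of the deposited matrices, 20 in a replication group and 20 in a mitosis group. The cells were selected for the red fluorescent protein mCherry by flow cytometry out of pooled mouse tumours of hosts aged 4 weeks (young) or 24 weeks (adult), and both libraries carry the label d7. Each age is 1 droplet library (10x Genomics 3' v2), in which a captured RNA molecule is counted by its own tag, the unique molecular identifier (UMI). The tumour, the strain, the number of pooled animals and the source of the mCherry gene are not named in the labels. A single library stands for each age, so no difference can be tested: every interval is a 95% interval of counting error, and effects of age, pool, sort and library cannot be told apart.

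Before a cell divides it copies its DNA once. The helicase made of the Mcm2 to Mcm7 subunits is loaded at origins by Cdc6 and Cdt1 and opens the double strand, Pcna clamps the polymerase to it, Fen1 and Lig1 process and seal the new strand, and Rrm1, Rrm2, Tyms, Tk1 and Dut make or guard the nucleotide supply. In mitosis the kinase Cdk1 with cyclins Ccnb1 and Ccnb2, the kinases Plk1, Aurka and Aurkb and the motor Kif11 build the spindle. The centromere proteins Cenpa, Cenpe and Cenpf hold the chromosomes to it, and Cdc20 and Ube2c direct the breakdown of cyclin that ends the phase. Transcripts of the first set are known to peak before and during DNA synthesis and those of the second set in G2 and mitosis, through E2F factors in the first case and through the DREAM and MuvB complexes, which act at the cell cycle homology region (CHR) together with CCAAT boxes, in the second.

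The stretches upstream of the gene starts carried letters of these elements, and 5 are shown because they make the difference between the groups visible. RefSeq promoters on GRCm38.p6 (the mm10 build) were matched for 35 of the 40 genes, 18 of the replication group with 23 promoters and 17 of the mitosis group with 17. Each line gives bases before the start, 5′ to 3′ along the gene, with E2F letters in capitals for Mcm6 (chr1:128359706-128359855, minus strand) and Mcm5 (chr8:75109341-75109508, plus strand), and CHR letters and CCAAT boxes of either strand in capitals for Top2a (chr11:99024190-99024431, minus strand), Cdk1 (chr10:69352939-69353135, minus strand) and Ccnb2 (chr9:70421555-70421736, minus strand).
Mcm6: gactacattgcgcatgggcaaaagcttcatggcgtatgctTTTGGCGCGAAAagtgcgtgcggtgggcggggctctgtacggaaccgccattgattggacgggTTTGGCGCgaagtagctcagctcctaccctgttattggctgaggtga
Mcm5: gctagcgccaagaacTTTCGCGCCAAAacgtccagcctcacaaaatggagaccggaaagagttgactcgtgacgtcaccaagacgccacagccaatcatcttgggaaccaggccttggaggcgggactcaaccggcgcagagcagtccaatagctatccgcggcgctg
Top2a: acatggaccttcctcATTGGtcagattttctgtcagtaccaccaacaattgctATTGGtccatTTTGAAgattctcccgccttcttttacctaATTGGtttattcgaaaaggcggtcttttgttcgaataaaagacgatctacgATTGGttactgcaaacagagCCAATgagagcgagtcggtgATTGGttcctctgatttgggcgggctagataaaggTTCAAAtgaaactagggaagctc
Cdk1: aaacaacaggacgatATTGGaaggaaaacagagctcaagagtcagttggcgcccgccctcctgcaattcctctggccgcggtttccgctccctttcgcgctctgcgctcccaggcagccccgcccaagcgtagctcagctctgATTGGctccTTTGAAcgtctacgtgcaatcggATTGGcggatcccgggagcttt
Ccnb2: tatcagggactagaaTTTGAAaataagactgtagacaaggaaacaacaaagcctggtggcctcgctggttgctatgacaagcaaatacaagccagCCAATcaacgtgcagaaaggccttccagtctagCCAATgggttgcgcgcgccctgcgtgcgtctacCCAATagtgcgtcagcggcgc
The E2F letters searched were TTTGGCGC, TTTCGCGC, TTTCCCGC and TTTGCCGC, the CHR letters TTTGAA and the CCAAT box CCAAT, on both strands of 300 bases per promoter (250 before and 50 after the start). In the first capital run of Mcm6 and in the run of Mcm5 a pair of E2F matches on opposite strands overlap. E2F letters stood in 9 of 23 replication promoters (39.1%) and 1 of 17 mitosis promoters (5.88%), against 2.26% of all 32851 promoters. CHR letters stood in 12 of 17 mitosis promoters (70.6%) and 2 of 23 replication promoters (8.70%), against 17.9% of all. A CCAAT box stood in 15 of 17 and 12 of 23, against 37.4% of all, and CHR letters together with a CCAAT box in 12 of 17 (70.6%) and 1 of 23 (4.35%), against 6.95% of all. Cdk1 was the mitosis gene with E2F letters. Birc5 and Nusap1 were the mitosis genes without a CHR or CCAAT match. A match is a run of letters and not a measured site, and the elements were chosen from knowledge of these genes.

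The young library held 7558 barcodes with 84862471 UMIs and the adult library 6279 with 70988070. After removal of barcodes under 200 genes or over 10% mitochondrial UMIs and of 1 called doublet per library, 7089 young cells (median 9842 UMIs) and 5773 adult cells (median 9659) were kept. The doublet caller marked too few cells to have worked, so doublets must be taken as present. Of the kept cells, 97 barcodes occurred in both libraries. In 37 of these the adult barcode was an mCherry-high cell of 65496 to 138089 UMIs, and the young barcode held 501 to 1034 UMIs, with a median of 0.724% of the adult depth. All 37 young barcodes lie below the depth used for shares of cells, and sums are given with and without shared barcodes where they differ. How the pairs arose was not tested.

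Cells were put in 3 classes by marker UMIs. The mCherry-high class (10 or more mCherry UMIs) held 423 young and 475 adult cells with median depths of 32751 and 31229 UMIs. The Csf1r-positive class (at least 1 UMI of Csf1r, the receptor that sustains macrophages and monocytes, and under 2 of mCherry) held 5390 and 4265 cells at 10325 and 10081 UMIs. The Cd3-positive class (2 or more UMIs of the T cell receptor chains Cd3d, Cd3e and Cd3g) held 65 and 122 cells at 9223 and 4642 UMIs. The classes are cuts on counts, and 1236 young and 928 adult cells fell in none. Marker genes matched the class names for the last pair only in part. All 10 macrophage or monocyte markers were detected in Csf1r-positive cells, at a summed 12623 and 10270 counts per 1000000 UMIs (CPM). Csf1r itself, which defines the class, is among them at 375 and 374 CPM. All 10 T cell markers were detected in Cd3-positive cells, at 3922 and 5823 CPM, but those cells also held 3375 and 2796 CPM of the macrophage markers. The T cell list includes the class-defining Cd3d, Cd3e and Cd3g, at 628, 327 and 519 CPM in young and 1022, 454 and 1044 CPM in adult cells. Part of both matches was thus set by the class rules. In mCherry-high cells the 4 leukocyte markers, which include Ptprc (CD45), summed to 537 and 351 CPM, against 5600 and 5030 CPM in Csf1r-positive cells. No cell type is assigned to them here.

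Replication and mitosis RNA was most abundant per UMI in mCherry-high cells, intermediate in Cd3-positive cells and low in Csf1r-positive cells, in both libraries. The replication genes summed to 1210 CPM (1194 to 1227) in young and 1275 CPM (1258 to 1292) in adult mCherry-high cells, to 855 (796 to 917) and 772 (715 to 833) in Cd3-positive cells, and to 267 (263 to 271) and 263 (259 to 268) in Csf1r-positive cells. The mitosis genes summed to 1043 (1028 to 1059) and 966 (951 to 981), to 827 (769 to 888) and 570 (521 to 623), and to 95.9 (93.4 to 98.4) and 116 (113 to 119) CPM in the same order. Per cell, this was a mean of 49.3 and 45.7 replication UMIs and 42.5 and 34.6 mitosis UMIs in mCherry-high cells. Csf1r-positive cells held 2.93 and 2.90 replication UMIs and 1.05 and 1.28 mitosis UMIs. The Cd3-positive means were 12.1 and 5.44 replication and 11.7 and 4.02 mitosis UMIs, beside their lower adult depth. The means hide a skew: the median mCherry-high cell held 13 and 12.0 mitosis UMIs, while the highest held 708 and 575. In Cd3-positive cells the highest cell held 222 of 789 young and 98 of 664 adult replication UMIs, with medians of 3 and 2. For mitosis UMIs it was 155 of 763 and 74 of 490, with medians of 2 and 0. The intervals of the sums and of single genes do not cover this spread between cells, so they are too narrow for a class of few cells.

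A granulocyte reference, cells with at least 2 UMIs of Csf3r and without the class markers, was measured beside the classes. It held 50 young and 52 adult cells at median depths of 2916 and 2181 UMIs, with 179 (130 to 239) and 181 (119 to 263) CPM of replication genes and 95.4 (61.1 to 142) and 26.8 (7.30 to 68.6) CPM of mitosis genes. The young value was close to that of young Csf1r-positive cells, but it rests on 24 UMIs, and Cenpa alone was at 59.6 CPM there. The reference was not free of other cells' RNA, with 10028 and 3901 CPM of macrophage or monocyte markers beside 14497 and 65702 CPM of neutrophil markers. A wider reference with neutrophil genes, added after seeing the data, held 43.6 and 31.4 CPM of mitosis genes and 131 and 153 CPM of replication genes in 57 and 100 cells. Of the 40 genes, 6 young and 10 adult replication genes and 13 young and 17 adult mitosis genes had no UMI in the reference. Each of the 40 had UMIs in each of the 3 classes. The reference held only 251700 and 149205 UMIs in all, against 59137763 and 46922336 in Csf1r-positive cells. A gene without a UMI there therefore cannot be called absent or lower than in the classes.

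**Figure D1:**
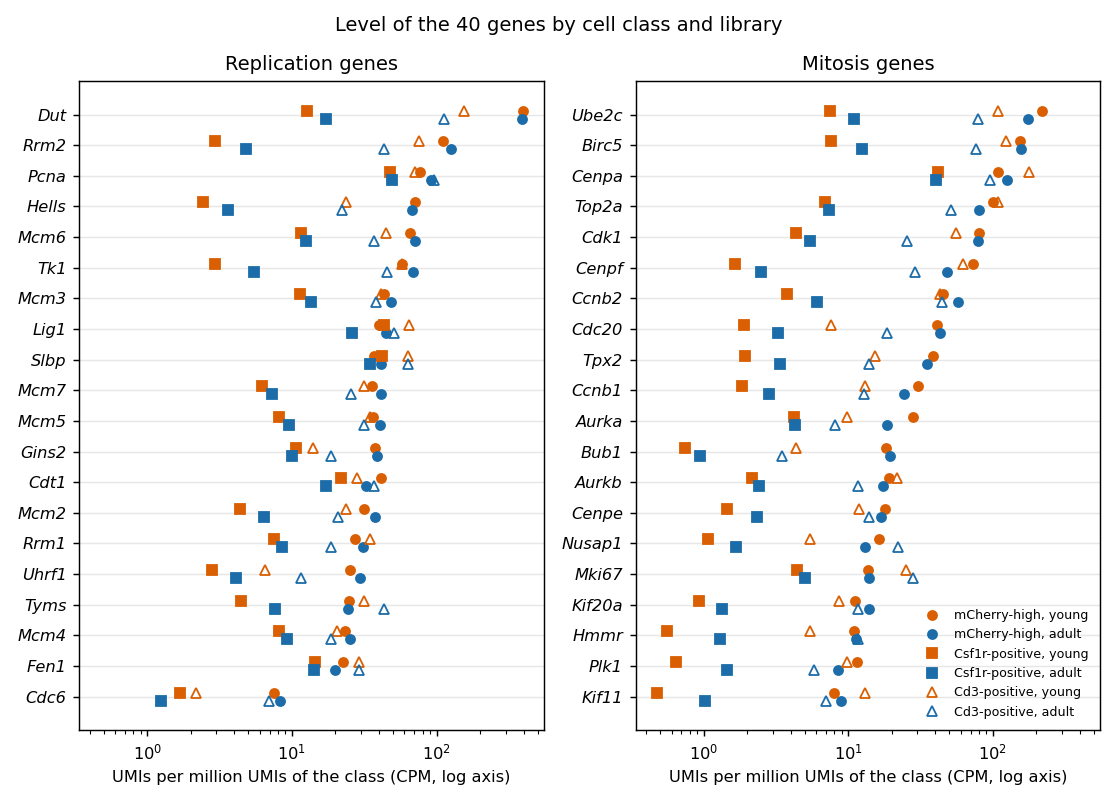
Level of each of the 40 genes (CPM, log axis) in mCherry-high cells (circles), Csf1r-positive cells (squares) and Cd3-positive cells (open triangles) of the young (orange) and adult (blue) library, ordered by the mCherry-high level. Dut and Ube2c lead the mCherry-high cells at 396 and 387 and at 219 and 176 CPM, and Slbp, Lig1, Fen1, Pcna and Cdt1 are the genes whose squares lie within 2-fold of the circles or past them in both libraries.

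To count dividing cells at an equal depth, each cell was thinned at random to 3000 UMIs and shallower cells were left out. A cell passed the replication gate with at least 4 UMIs of the 20 replication genes, the mitosis gate with at least 3 of the 20 mitosis genes, and is called cycling here if it passed either. In mCherry-high cells 54.8% (exact binomial interval 49.8 to 59.7, 223 of 407) of young and 52.4% (47.7 to 57.0, 242 of 462) of adult cells were cycling. In Csf1r-positive cells the shares were 2.60% (2.18 to 3.07, 134 of 5162) and 3.29% (2.77 to 3.89, 136 of 4128). In Cd3-positive cells they were 25.9% (15 to 39.7, 14 of 54) and 18% (10.6 to 27.5, 16 of 89). The granulocyte reference had 1 of 24 young cells past a gate (4.17%, 0.105 to 21.1) and 0 of 15 adult cells, which allows up to 20%, so at this number of cells it sets no useful bound on the Csf1r-positive share. The wider reference had 0 of 11 and 0 of 19. Without thinning, on cuts scaled to each cell's depth, the class shares were 45.9% and 47.8%, 1.37% and 2.34%, and 21.5% and 12.3%.

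**Figure D2:**
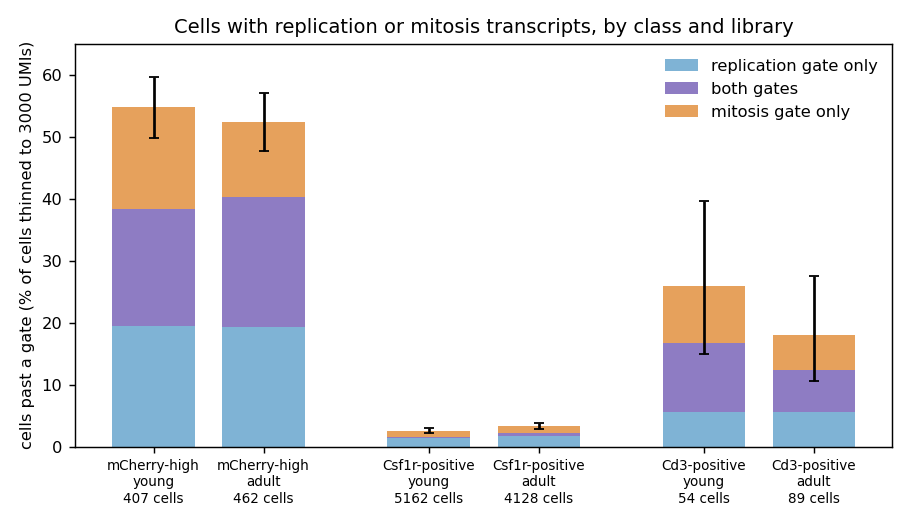
Share of thinned cells (percent) past the replication gate alone (blue), both gates (violet) or the mitosis gate alone (orange), by class and library, with the exact 95% interval of the total. About 1 mCherry-high cell in 2 passed a gate (54.8% and 52.4%), against 2.60% and 3.29% of Csf1r-positive cells, and the Cd3-positive intervals of both libraries overlap.

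The class difference was larger than any difference between the ages. The share of cycling cells was 21.1 times (17.5 to 25.5) higher in mCherry-high than in Csf1r-positive cells of the young library and 15.9 times (13.2 to 19.2) higher in the adult library. It was 9.99 times (6.18 to 16.2) and 5.46 times (3.40 to 8.76) higher in Cd3-positive than in Csf1r-positive cells. The size of the first ratio follows the cuts, from 9.12 and 9.06 with looser gates to 46.3 and 24.9 with 6 broadly present genes left out of the gates. Dut, which mCherry-high cells past neither gate also held, stayed in all of these gates. Without it, 36 young and 62 adult mCherry-high cells passed the replication gate alone, instead of 79 and 89. In Csf1r-positive cells these numbers were 66 and 64 instead of 74 and 68. The class ratio without Dut is not given here. Just inside a gate, by 1 UMI at most, lay 49 young and 33 adult mCherry-high cells and 59 and 49 Csf1r-positive cells. Just below lay 64 and 46, and 265 and 148. Many Csf1r-positive cells therefore sit at the edge of the definition.

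Between the ages, the young over adult ratio of the cycling share in mCherry-high cells was 1.05 (0.924 to 1.18). Its size and side of 1 followed the cuts: it was 1.13 (1.03 to 1.24) with gates lowered to 3 and 2 UMIs, 0.863 (0.715 to 1.04) with gates raised to 6 and 5, 0.948 (0.826 to 1.09) at 5000 UMIs and 0.960 (0.834 to 1.10) without thinning. The Cd3-positive ratio of 1.44 (0.766 to 2.71) also spanned 1, but it was 1.81 (1.10 to 3.0) with the lowered gates and 2.62 (1.30 to 5.26) without cells that also met another class rule. The Csf1r-positive ratio of 0.788 (0.623 to 0.997) ended just below 1 and was above 1 in some strata of the class, as given below. It turned to 1.12 (0.970 to 1.30) with the lowered gates and was 0.549 (0.378 to 0.797) with the raised ones.

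**Figure D3:**
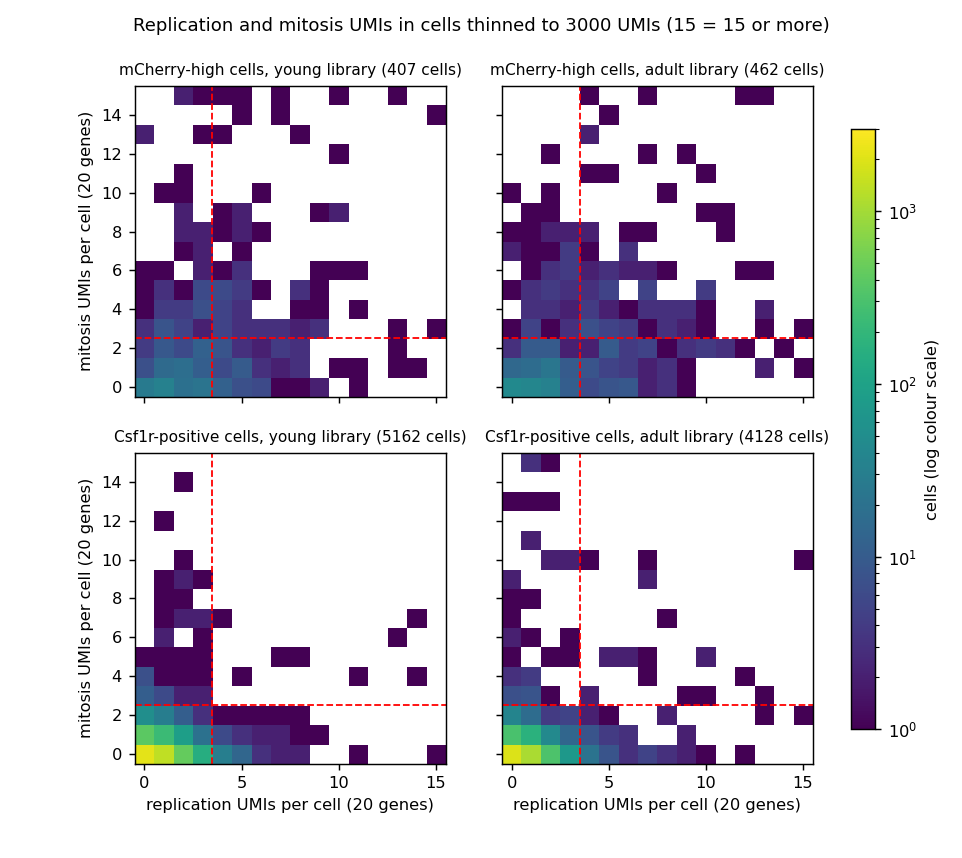
Replication UMIs (horizontal) and mitosis UMIs (vertical) per cell thinned to 3000 UMIs, in mCherry-high (top) and Csf1r-positive (bottom) cells of the young (left) and adult (right) library. Colour is the number of cells on a log scale, 15 stands for 15 or more and dashed lines are the gates. The Csf1r-positive cells pile up at 0 mitosis UMIs (82.3% and 83.5% of cells), the mCherry-high cells spread over all 4 fields.

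At these gates the share of cycling cells past the mitosis gate was close between the libraries in mCherry-high and Csf1r-positive cells. Of cycling mCherry-high cells, 79 young and 89 adult cells passed the replication gate alone, 77 and 97 both gates, and 67 and 56 the mitosis gate alone. The mitosis gate was thus passed by 64.6% (57.9 to 70.8) of young and 63.2% (56.8 to 69.3) of adult cycling cells. With Dut left out of the gates, 36 young and 62 adult cells passed the replication gate alone and 144 and 153 the mitosis gate. The share past the mitosis gate was then higher in both libraries and less close between them. Cycling Csf1r-positive cells numbered 74 and 68 with the replication gate alone, 8 and 20 with both, and 52 and 48 with the mitosis gate alone, which puts 44.8% (36.2 to 53.6) and 50% (41.3 to 58.7) past the mitosis gate. In Cd3-positive cells 11 of 14 and 11 of 16 passed it. Cells past both gates were thus fewer among cycling Csf1r-positive cells, at 5.97% (2.61 to 11.4) and 14.7% (9.22 to 21.8), than among cycling mCherry-high cells, at 34.5% (28.3 to 41.2) and 40.1% (33.9 to 46.6). The class gap at the mitosis gate depended on the genes in the gates. With 6 broadly present genes left out, 36 of 52 and 49 of 77 cycling Csf1r-positive cells passed it. Of cycling mCherry-high cells 126 of 190 and 136 of 215 then did, so that gap was no longer seen. The replication gate was then passed by 24 and 43 of these Csf1r-positive cells and by 120 and 149 of these mCherry-high cells. The class gap in cells past both gates was thus smaller as well, but its direction was kept. Before thinning, cycling cells were deeper than the others of their class. Their medians were 42504 against 27488 UMIs and 37082 against 26612 in mCherry-high cells, and 15520 against 10487 and 17188 against 10138 in Csf1r-positive cells. Median doublet scores were not higher in cycling cells of these classes (0.0728 against 0.0841 and 0.0532 against 0.0662 in mCherry-high, 0.0754 against 0.107 and 0.0789 against 0.0912 in Csf1r-positive cells).

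Among the replication genes, the nucleotide supply genes Dut and Rrm2 and the chromatin remodeller Hells set mCherry-high cells furthest apart. Called here means at least 2-fold with an interval that excludes 1, among features that reach 10 CPM in either class. By that rule 14 of 19 measured replication genes and 19 of 19 measured mitosis genes were higher in young mCherry-high than Csf1r-positive cells. In the adult library 14 of 19 and 18 of 18 were higher. The background was 25.9% of 7680 features higher and 27.5% lower in the young library, and 25.2% of 7583 higher and 27.2% lower in the adult one. None of the 40 was lower. The median log2 ratio was 1.65 and 1.55 for measured replication genes and 2.01 and 1.97 for measured mitosis genes, against -0.05 and -0.003 over all features, each with a pseudocount of 5 CPM.

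Dut, which removes dUTP from the nucleotide pool, was at 396 CPM in young and 387 in adult mCherry-high cells, against 12.7 and 17.3 in Csf1r-positive cells, 31.2-fold (28.9 to 33.7) and 22.4-fold (20.8 to 24.1). It was not restricted to the gated cells: mCherry-high cells past neither gate, built without Dut, held 307 and 247 CPM. Rrm2, the regulated subunit of ribonucleotide reductase, was at 110 and 126 against 2.96 and 4.84 CPM, 37.3-fold (31.9 to 43.8) and 25.9-fold (22.6 to 29.9). Hells was at 71.1 and 67.6 against 2.42 and 3.62 CPM, 29.4-fold (24.7 to 35.2) and 18.7-fold (15.9 to 22.1). The constitutive partner Rrm1 was at 27.1 and 30.8 against 7.47 and 8.59 CPM, a smaller ratio of 3.63 and 3.59. The helicase subunits moved as a set: Mcm2 to Mcm7 ran from 23.4 to 65.1 CPM in young and from 25 to 71.0 in adult mCherry-high cells, with ratios between 2.90 and 7.20 and between 2.70 and 5.87, Mcm4 lowest and Mcm2 highest in both. The loading factor Cdc6, at 7.49 and 8.23 CPM, was under the minimum level in both classes. Counts of a 3' kit are not scaled by gene length and capture differs between genes, so these levels are not ranks of molecules.

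A further set of replication genes differed by less than 2-fold between the classes. Slbp in both libraries and Lig1 in the young one were nearly even. Pcna (1.62-fold and 1.85-fold) and Cdt1 (1.87-fold and 1.91-fold) were higher in mCherry-high cells. Slbp, which binds the end of histone mRNA, was at 36.8 and 41.3 CPM in mCherry-high and 41.7 and 34.9 CPM in Csf1r-positive cells, and at 63.6 and 73.7 CPM in the granulocyte reference. Lig1 was at 39.7 and 45.0 against 43.3 and 26.0 CPM, and Fen1 at 22.5 and 19.8 against 14.4 and 14.2 CPM. Pcna, at 77.5 and 91.5 against 47.7 and 49.4 CPM, and Cdt1, at 41.1 and 32.7 against 22.0 and 17.1 CPM, also stayed under 2-fold. A Pcna pseudogene is among the features, so reads may have been split and the Pcna counts are uncertain. In Csf1r-positive cells past neither gate Pcna still held 47.3 and 44.6 CPM, Slbp 44.5 and 31.6 and Lig1 37.0 and 20.2. Pcna, Slbp and Lig1 made up 49.7% and 41.9% of all replication UMIs of the class, and Cenpa, Birc5 and Ube2c 59.4% and 54.7% of its mitosis UMIs. With Cenpa, Pcna, Slbp, Lig1, Cdt1 and Fen1 left out of the gates, an alternative added after seeing the data, the Csf1r-positive cycling share fell to 1.01% (0.753 to 1.32) in young and 1.87% (1.47 to 2.33) in adult cells, a ratio of 0.540 (0.381 to 0.766). The mCherry-high share was then 46.7% and 46.5%.

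The mitosis genes separated the classes more sharply, and their sum was 10.9 times (10.6 to 11.2) and 8.32 times (8.07 to 8.58) higher in mCherry-high cells, against 4.53 times (4.44 to 4.63) and 4.84 times (4.74 to 4.95) for the replication sum. Ube2c, the ubiquitin-conjugating enzyme of the anaphase-promoting complex, was at 219 and 176 against 7.47 and 11 CPM, 29.3-fold (26.6 to 32.4) and 16-fold (14.6 to 17.6). Birc5 (survivin), a subunit of the chromosomal passenger complex, was at 153 and 156 against 7.61 and 12.4 CPM. Cenpf was at 73.2 and 47.9 against 1.66 and 2.49 CPM, 44.2-fold (36.0 to 54.8) and 19.2-fold (15.8 to 23.5). Top2a, the topoisomerase that untangles sister chromatids, was at 100 and 80.4 against 6.90 and 7.35 CPM. The widely used proliferation marker Mki67 had few UMIs and a small ratio, 13.7 and 13.8 against 4.43 and 4.99 CPM, 3.09-fold (2.58 to 3.70) and 2.77-fold (2.30 to 3.33). The centromeric histone gene Cenpa was at 108 and 126 against 41.9 and 40.2 CPM, 2.57-fold (2.42 to 2.73) and 3.13-fold (2.94 to 3.33), so its background level in Csf1r-positive cells was the highest of the group. Kif11, at 7.96 and 8.87 CPM, and in the adult library Plk1, at 8.46 CPM, were the mitosis genes under the minimum level.

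In Cd3-positive cells the leading replication genes by the mean of both libraries were Dut (156 and 113 CPM), Pcna (70.4 and 96.5) and Slbp (63.9 and 64.0), and the leading mitosis genes Cenpa (177 and 95.4), Birc5 (122 and 76.8) and Ube2c (108 and 79.1). Mki67, at 24.9 and 27.9 CPM, compared with 13.7 and 13.8 CPM in mCherry-high cells. By subset the numbers were small. Of thinned cells with a UMI of Cd8a, the CD8 T cell chain, 5 of 18 young and 3 of 16 adult cells were cycling, against 9 of 36 and 13 of 73 without one. With a UMI of Trdc, the gamma delta receptor constant region, 4 of 11 and 4 of 31 were cycling. With one of Cd4, 0 of 3 young cells, too few to bound the share, and 3 of 21 adult cells were cycling.

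Young and adult mCherry-high cells were close in most of the 40 genes. Called between ages means at least 1.5-fold with an interval that excludes 1, among features that reach 10 CPM in either library. Of 38 measured genes 2 were higher in the young library and 0 lower, against a background of 4.33% of 6645 features higher and 0.933% lower. Both are mitosis genes: Cenpf at 73.2 against 47.9 CPM (1.53-fold, 1.40 to 1.67) and Aurka, a spindle pole kinase, at 28.2 against 18.6 CPM (1.52-fold, 1.32 to 1.76). Both sit at the edge of the rule, and 0 of 38 were called higher with mCherry limits of 30 UMIs, against 4.06% of features. Beside them Ube2c (1.24-fold, 1.19 to 1.31) and Top2a (1.25-fold, 1.16 to 1.34) were higher and Ccnb2 (0.787, 0.716 to 0.865) and Pcna (0.847, 0.787 to 0.912) lower by less than the limit, and Mki67 was at 0.992 (0.825 to 1.19). The mitosis sum was 1.08 times (1.06 to 1.10) the adult one and the replication sum 0.949 times (0.931 to 0.967). Leaving out shared barcodes removes at least 41 of the adult cells and 2 of the young ones, counted among barcodes kept in both libraries. The replication ratio then turned to 1.04 (1.02 to 1.06) and the mitosis ratio was 1.18 (1.15 to 1.21). The direction of the replication ratio thus depended on those barcodes. Of the adult cells removed, 37 held 65496 to 138089 UMIs, against a class median of 31229. The alternative thus took deep cells mainly from the adult library, so the turn cannot be read as the removal of an artefact.

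In Csf1r-positive cells 1 of 12 measured genes was higher and 1 lower in the young library, against 3.39% of 6485 features higher and 2.5% lower. Lig1, the ligase that seals nicks, was at 43.3 against 26.0 CPM (1.66-fold, 1.55 to 1.78). Birc5 was at 7.61 against 12.4 CPM (0.616, 0.543 to 0.697). Most members were under 10 CPM here and therefore outside the rule. The ratio was nevertheless below 1 for 19 of 20 mitosis genes, all but Cenpa, and for 14 of 20 replication genes. Medians over all 20 were -0.16 and -0.13 on the log2 scale (5 CPM added, which shrinks low genes). The 6485 measured features had a median of 0.04, but they reach 10 CPM and most members do not. At that level the 3 measured mitosis genes had a median of -0.36 and the 9 measured replication genes one of 0.015. The share of features with a ratio below 1 at the members' levels is not given here. Without a minimum level, 14 of 40 were called lower, against 4.56% of 17865 features, most of which are under 10 CPM. They included Tk1 (2.94 against 5.48 CPM), Tyms (4.41 against 7.65) and Rrm2 (2.96 against 4.84). The 40 genes share the same cells, so their common direction is close to 1 observation. The mitosis sum was 0.826 times (0.795 to 0.857) the adult one. The replication sum was even, at 1.01 (0.990 to 1.04). With each cell given the same weight, 0 of 8 measured genes were called lower, against 2.26% of features, and the mitosis ratio was 0.916.

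**Figure D4:**
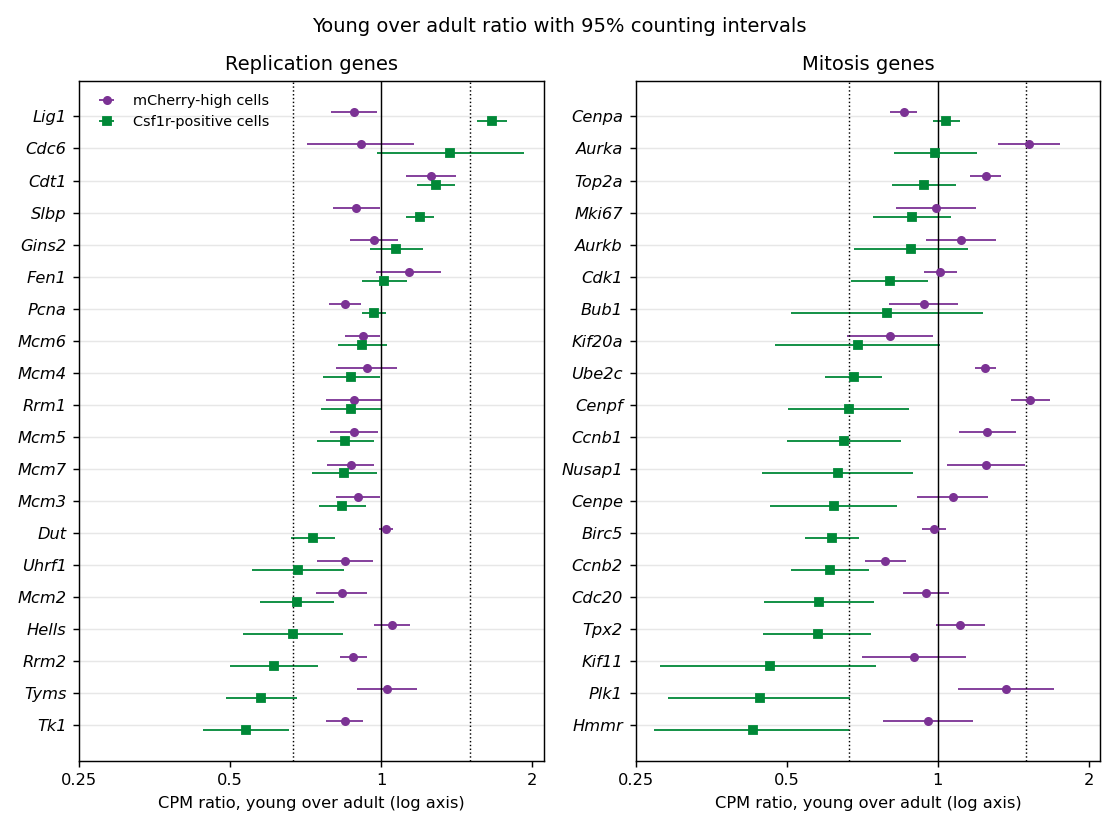
CPM ratio of the young over the adult library (log axis) for each gene in mCherry-high (violet circles) and Csf1r-positive (green squares) cells, with 95% counting intervals and dotted lines at 1.5-fold. Cenpf and Aurka pass the upper line among the circles and Lig1 among the squares. The mitosis squares lie below 1 except Cenpa, most of them at levels under 10 CPM, and 14 squares of both groups, Birc5 among them, lie beyond the lower line with intervals that exclude 1.

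In Cd3-positive cells 6 of 36 measured genes were higher and 1 lower in the young library, against 7.52% of 7620 features higher and 8.73% lower. The higher genes were Top2a (108 against 51.2 CPM, 2.12-fold, 1.47 to 3.09), Cdk1 (55.3 against 25.6), Cenpf (61.8 against 29.1), Cenpa (177 against 95.4), Birc5 (122 against 76.8) and Rrm2 (75.8 against 43.0). Nusap1, a spindle microtubule protein, was lower at 5 against 19 UMIs. The mitosis sum was 1.45 times (1.29 to 1.63) the adult one and the replication sum 1.11 times (0.997 to 1.23). These values rest on few cells: the class held 14 and 16 cycling cells after thinning. When each cell weighed the same, the mitosis ratio was 1.17 and 1 of 32 measured genes was called higher, against 5.32% of features. When cells that also met another class rule were left out, the mitosis ratio was 2.67 (2.29 to 3.10) and 13 of 37 were called higher, against 4.22% of 7822 features. Of the Cd3-positive cells 23 young and 16 adult ones held a Csf1r UMI, and 2 and 1 were mCherry-high.

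Within the Csf1r-positive class, the cycling share differed between cells with and without Ly6c2, complement or Hmox1 RNA. Ly6c2 marks inflammatory monocytes. In cells without a Ly6c2 UMI among the 3000 of the thinned cell 5.17% (3.94 to 6.64, 57 of 1103) of young and 6.30% (5.15 to 7.62, 99 of 1571) of adult cells were cycling, against 1.90% (1.5 to 2.37) and 1.45% (1.02 to 1.99) of cells with one. The cells without it were 2.72 times (1.95 to 3.81) and 4.36 times (3.0 to 6.32) as often cycling. They made up 21.4% of the young and 38.1% of the adult class. Within the strata the young over adult ratio was 0.820 (0.597 to 1.13) without and 1.31 (0.889 to 1.93) with Ly6c2, on either side of 1 and both with intervals that span it. Cells with at least 3 UMIs of the complement genes C1qa, C1qb and C1qc, which mark mature macrophages, were cycling in 3.39% (2.79 to 4.08) and 5.16% (4.28 to 6.16), against 1.32% (0.862 to 1.92) and 1.11% (0.685 to 1.68) of the rest. Here the ratio between ages was 0.656 (0.508 to 0.849) in complement-rich cells and 1.19 (0.673 to 2.11) in the rest, again on either side of 1. With at least 2 UMIs of the heme oxygenase gene Hmox1, 1.40% (0.869 to 2.13) and 0.924% (0.301 to 2.14) were cycling, against 3.08% (2.55 to 3.70) and 3.65% (3.06 to 4.32) of other cells. The share with a UMI of the interferon-induced gene Ifit3 was 1.49% (0.839 to 2.45) and 2.58% (1.30 to 4.57), against 2.86% (2.38 to 3.42) and 3.38% (2.82 to 4.01). By 2 UMIs of the class II gene H2-Ab1 the shares overlapped in both libraries (2.79% against 2.17% and 3.40% against 2.99%). The ratio between ages was below 1 in both strata of Ifit3, at 0.579 (0.268 to 1.25) with and 0.848 (0.662 to 1.09) without a UMI, and of H2-Ab1, at 0.820 (0.626 to 1.08) and 0.725 (0.452 to 1.16). For Hmox1 it was 1.52 (0.574 to 4.0) with and 0.845 (0.660 to 1.08) without. With a UMI of the mannose receptor gene Mrc1, 8 of 124 young and 16 of 336 adult cells were cycling, a ratio of 1.35 (0.595 to 3.09), against 0.790 (0.618 to 1.01) in cells without one.

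The cycling share was also larger at larger mCherry counts among cells that held a Csf1r UMI. It was 2.46% and 2.98% at 0 mCherry UMIs, 3.35% (2.22 to 4.83) and 4.91% (3.40 to 6.83) at 1, 9.09% (4.93 to 15, 13 of 143) and 15.9% (9.54 to 24.2, 17 of 107) at 2 to 9, and 56.9% (49.6 to 63.9, 112 of 197) and 48.6% (40.9 to 56.3, 84 of 173) at 10 or more. Conversely, the Csf1r count made no difference beyond counting error within mCherry-high cells: 52.9%, 58.9% and 50% of young and 54.7%, 47.6% and 53.8% of adult cells with 0, 1 to 4 and 5 or more Csf1r UMIs were cycling. Whether cells with both RNAs are single cells, doublets or carry free RNA was not tested. Of the genes Ankrd1 and Cyr61, which are targets of YAP, Ankrd1 went with a higher share in the adult library, 68.1% (56.0 to 78.6, 49 of 72) against 49.5% (44.4 to 54.6). In the young library this was 58.3% (46.1 to 69.8) against 54.0% (48.5 to 59.5). The Cyr61 shares overlapped in both (47.7% against 56.1% and 51.4% against 52.6%).

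The place of each gene within the cycle was read by comparing cells past the mitosis gate with cells past the replication gate alone, each time with gates built without the gene itself. The gates are uneven: mitosis-gate cells may pass the replication gate too, while replication-only cells never pass the mitosis gate. All 20 mitosis genes were higher in mitosis-gate cells of the young library in both classes, and 18 of 20 (mCherry-high) and 19 of 20 (Csf1r-positive) in the adult library, with median log2 ratios of 1.37, 2.07, 1.24 and 2.76. Of these, 10, 10, 11 and 14 had intervals that excluded 1. Ube2c was at 452 against 165 CPM in young and 321 against 103 CPM in adult mCherry-high cells. In Csf1r-positive cells it was at 133 against 4.50 and 207 against 4.90 CPM, from 22 against 1 and 41 against 1 UMIs. The size of these ratios is therefore uncertain. Cenpa was at 352 against 31.5 and 306 against 42.9 CPM in Csf1r-positive cells, where cells past neither gate held 38.2 and 33.8 CPM. Most of its thinned UMIs lay in cells past neither gate, 579 young and 406 adult, against 38 and 45 in mitosis-gate cells. Gates built without Cenpa left 36 and 49 mitosis-gate cells, instead of 60 and 68. Ccnb2 was at 137 against 0 and 142 against 9.80 CPM in Csf1r-positive cells, from 23 against 0 and 26 against 2 UMIs.

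The replication genes fell on both sides. In mCherry-high cells 11 of 20 were higher in replication-only cells in each library, and in Csf1r-positive cells 12 and 15, with median log2 ratios of -0.14, -0.16, -0.63 and -0.36. The interval excluded 1 for 0, 1, 1 and 1 of these. Mcm3 was at 16.7 against 65.7 CPM (0.254, 0.0464 to 0.924) in young and 49.0 against 102 CPM (0.482, 0.199 to 1.10) in adult Csf1r-positive cells. Tk1, thymidine kinase, stood on the mitosis side in both libraries and both classes, at 83.3 against 49.5 and 129 against 84.3 CPM in mCherry-high and 44.4 against 23.1 and 103 against 59.7 CPM in Csf1r-positive cells. None of these 4 intervals excluded 1. Rrm1, Rrm2 and Tyms did so in Csf1r-positive cells of both libraries, Tyms at 72.2 against 18.5 CPM in young cells (3.90-fold, 1.20 to 16.4) and 83.3 against 51.3 in adult ones (1.62-fold, 0.703 to 3.97). Cdt1 did so in mCherry-high cells of both, at 39.4 against 32.4 and 54.5 against 45.5 CPM. Of mitosis-gate cells, 77 of 144 young and 97 of 153 adult mCherry-high cells passed the replication gate too. In Csf1r-positive cells these were 8 of 60 and 20 of 68. The sides of this comparison are therefore not pure phases. Low mitosis RNA in replication-only cells, and replication RNA on both sides, are partly set by the gates. The contrast between the 2 groups of genes therefore cannot be read as a difference in phase.

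**Figure D5:**
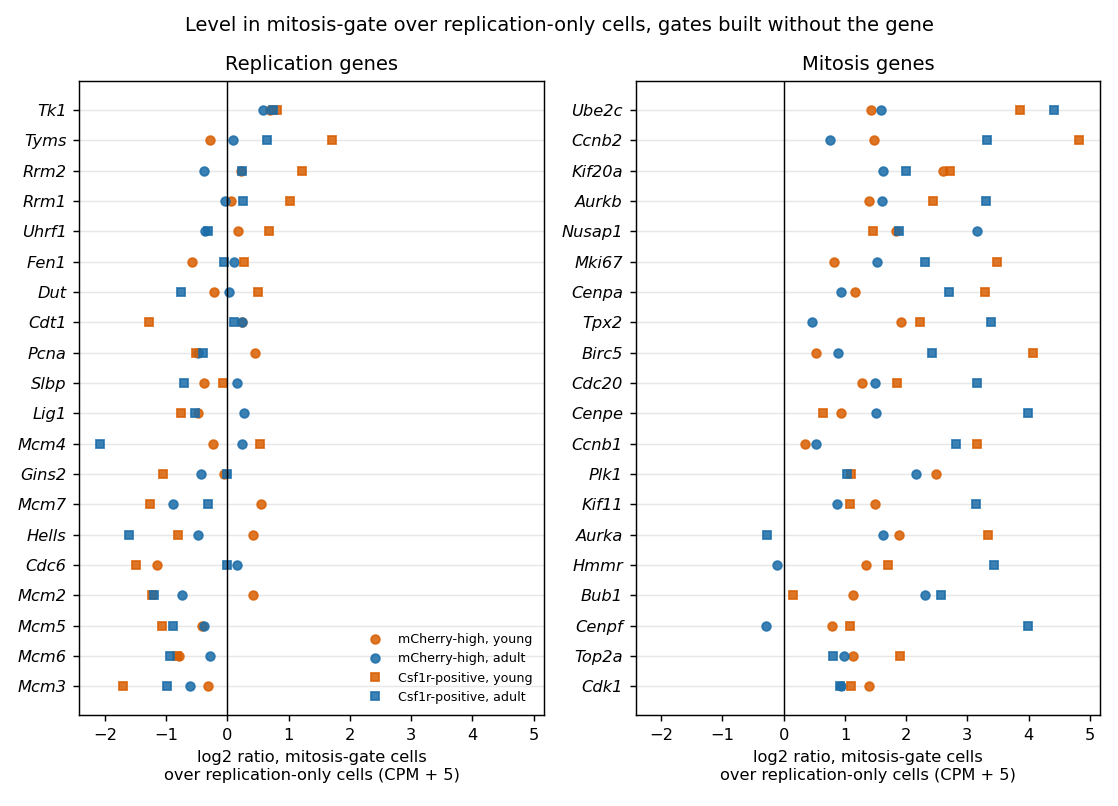
Log2 ratio of the level in mitosis-gate cells over replication-only cells (5 CPM added), with gates built without the gene, for mCherry-high (circles) and Csf1r-positive (squares) cells of the young (orange) and adult (blue) library. The mitosis genes lie right of 0 but for 3 points (Cenpf and Hmmr in adult mCherry-high, Aurka in adult Csf1r-positive cells), and the replication genes fall on both sides, with Tk1 right of 0 in all 4.

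Other genes of the same processes, from wider lists, followed the class difference. Over all features, 25.9% were higher and 27.5% lower in the young library, and 25.2% and 27.2% in the adult one. Of 33 measured further replication genes 27 were higher and 0 lower in young mCherry-high than Csf1r-positive cells, and 29 of 33 and 0 in adult ones. Of further mitosis genes 27 of 33 and 28 of 32 were higher and 1 lower, the separase gene Espl1 at 4.88 and 3.88 against 12.5 and 14.4 CPM. Among the largest ratios were those of the polymerase delta subunit Pold2 (72.4 and 67.1 against 9.25 and 9.27), Tipin of the fork protection complex (101 and 105 against 16.7 and 19.0), the kinase partner Cks1b (339 and 327 against 18.5 and 26.1), cyclin A2 (Ccna2, 40.8 and 41.7 against 2.13 and 3.03) and Cdca8 (68.9 and 57.9 against 7.14 and 7.03). Pold3, Gins4, Rfc2, Tubb4b and Pttg1 were within 2-fold in both libraries.

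Cell cycle control genes were called in both directions. Of 23 measured in the young library 12 were higher and 5 lower in mCherry-high cells, and of 25 in the adult library 12 and 6. Over all features 25.9% and 25.2% were higher and 27.5% and 27.2% lower. Lower calls were thus no more frequent than among all features. The kinase inhibitor gene Cdkn1a (p21) was at 97.4 and 76.5 against 822 and 788 CPM, 8.44-fold and 10.3-fold lower in mCherry-high cells. The antiproliferative gene Btg2 was at 21.6 and 18.2 against 143 and 143 CPM, and Mdm2, the ubiquitin ligase of p53, at 45.0 and 36.7 against 156 and 124 CPM. In the other direction, the inhibitor gene Cdkn2b (p15) was at 23.4 and 32.6 against 0.169 and 0.277 CPM, Myc at 48.8 and 57.3 against 5.78 and 8.65 CPM, and Tfdp1, the partner of E2F, at 79.1 and 79.6 against 13.2 and 16 CPM. Cdkn2b and Cdkn1a, inhibitors both, thus lay on opposite sides. Between the ages, the spindle midzone gene Prc1 was called in mCherry-high cells, at 26.8 against 14.9 CPM (1.80-fold, 1.54 to 2.10). In Csf1r-positive cells Pold3 was higher in the young library, at 21.1 against 13.5 CPM, and Cdk6 lower, at 17.5 against 27.2 CPM.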

How the data were processed

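UMI counts per gene and barcode are raw whole numbers as deposited by the authors, per the file headers of the sparse matrices, in 1 matrix per library of 31054 features. They were made with Cell Ranger 3.0.2 on mm10, per the submitters' processing notes. The annotation version and the filter on barcodes were not given in the sources used here. No deposited barcode held fewer than 500 UMIs. Sample titles gave the ages. Barcodes under 200 genes or over 10% mitochondrial UMIs were removed, and doublets called by Scrublet (scanpy 1.11.5, expected rate 6%) were left out.

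UMIs of a class were summed and divided by all its UMIs (CPM, per 1000000). Log2 ratios added 5 CPM. Intervals cover counting error only: exact Poisson for CPM, conditional binomial for CPM ratios, exact binomial (Clopper-Pearson) for shares and log-scale for share ratios. An observed 0 allows up to 3 counts. Cells were thinned once with a fixed seed to 3000 UMIs (711 young and 573 adult cells are shallower). No p-value was computed, because cells of 1 library do not replicate it. The ratio and thinning code was tested on simulated counts. Gene positions came from GENCODE M21 and promoters from RefSeq, both on mm10.

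The 40 genes, the gates, the wider gene lists and the markers were chosen with earlier results of these data known. Named are Mki67, Top2a and Pcna, the 3 highest genes of each group and class, those called between ages (at most 5 per direction), the 3 largest and 3 smallest class ratios, those on the other side of the phase comparison in both libraries, and of the wider lists the extremes and calls. Others named were chosen after their values were seen. A gene of the wider lists that this rule names is not reported here. Alternatives changed thinning, gates, class limits, doublets, filters, weights, minimum level and fold.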

Additional observations from a re-analysis of the deposited data

How the results depend on the processing

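Over the 31 results, 250 alternative values were computed, of which 198 kept their direction and call or lay within counting error. The alternatives without 6 genes and without shared barcodes were chosen after seeing the data. The cause of the changes below was not tested, except that fewer genes are measured under a stricter minimum.

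Gates and thinning moved the class ratio of the cycling share (young, adult) to 26.2 and 19.4 at 5000 UMIs, 33.4 and 20.4 without thinning, 9.12 and 9.06 with looser gates, 35.0 and 22.3 with stricter gates, and 46.3 and 24.9 without the 6 genes. The young over adult share ratio of Csf1r-positive cells was 0.586 without thinning, 0.549 with stricter gates, 0.540 without the 6 genes, and reversed to 1.12 with looser gates. That of mCherry-high cells was 0.863 with stricter gates. The mitosis gate was passed by 72.1% (5000 UMIs), 69.6% (no thinning), 73.6% (looser) and 54.5% (stricter) of adult cycling mCherry-high cells. Of young cycling Csf1r-positive cells it was 59.5% (no thinning), 56.5% (stricter) and 69.2% (without the 6 genes), and of adult ones 63.6% (without the 6 genes).

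The replication sum ratio of mCherry-high cells reversed to 1.04 without shared barcodes and was 0.926 without the highest doublet scores and 0.929 without ribosomal and mitochondrial genes. Their mitosis ratio was 1.18 without shared barcodes, 1.04 with equal cell weights and 1.06 without ribosomal and mitochondrial genes. For Csf1r-positive cells the replication and mitosis ratios were 1.04 and 0.882 with mCherry limits of 30 and 0, 1.08 and 0.916 with equal weights, and 0.970 and 0.790 without ribosomal and mitochondrial genes. For Cd3-positive cells they were 1.5 and 2.67 without cells of 2 classes, and the mitosis ratio 1.17 with equal weights.

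Of the 2 genes called higher in young mCherry-high cells, the count was 1 of 38 without cells of 2 classes (4.33% of all features). It was 1 of 38 without the highest doublet scores (5.16%) and 1 of 38 with every barcode (4.15%). With mCherry limits of 30 it was 0 of 38 (4.06%), and at 2-fold 0 of 38 (1.37%). In Csf1r-positive cells the genes called lower numbered 14 of 40 without a minimum level (4.56% of all features). They numbered 0 of 10 with a mean of 10 CPM (2.04%), 0 of 8 with equal weights (2.26%) and 0 of 12 at 2-fold (0.786%). Those called higher numbered 0 of 12 at 2-fold (0.571%). In Cd3-positive cells 13 of 37 were higher (4.22% of all features) and 0 lower (6.78%) without cells of 2 classes. With equal weights 1 of 32 was higher (5.32%), and at 2-fold 3 of 36 (4.79%). No paired analysis was possible because each age is 1 library. Depth limits the shares: 33 of 122 adult Cd3-positive and 228 of 5390 young Csf1r-positive cells lay under 3000 UMIs, and the granulocyte reference kept 24 and 15 cells.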
